A study of Mus musculus with 48 samples.

Results

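Whole dorsal skin of C57BL/6 mice was compared between 2 resting phases of the hair cycle, competent telogen (DCT, 2 libraries) and refractory telogen (DRT, 2 libraries). These 4 libraries were chosen because their labels name the dorsum and one of the telogen stages, and they stand among 14 dorsal libraries of 6 stages, 43 skin libraries of 3 body domains and 48 libraries in the series. The table lists 46983 genes, of which 16248 reached at least 0.5 FPKM in at least 2 of the 4 libraries and were tested. FPKM counts sequenced fragments per kilobase of transcript and scales them to the size of the library, so that levels can be read across genes of a library. Between libraries, differences also depend on the scaling, and counts under other scalings are given below. No allele or agent is named for any of the 4 libraries, and age, sex and the number of mice behind each library are not given in the labels. In the study, competent telogen is the first telogen and refractory telogen the early part of the second, so that the stage, the hair cycle number and the age of the mice cannot be told apart here.

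Hair follicles (HFs) pass through growth (anagen), regression (catagen) and rest (telogen). In telogen a cap of hair germ cells and the bulge, where the stem cells reside, sit above the dermal papilla (DP), a cluster of mesenchymal cells that signals to them. Bone morphogenetic proteins (BMPs) hold the stem cells at rest and mark the refractory phase, whereas WNT ligands, BMP antagonists, Hedgehog and several FGFs go with the onset of anagen. Pigment is made only while the hair shaft grows, since the melanocytes of the hair bulb are lost in catagen and renewed from stem cells in the next anagen.

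Before the levels were compared, the labels of the 4 libraries were checked against their transcriptomes. Both DCT libraries were as close to the chin late anagen libraries (CLA) as replicates are to each other. The root mean square difference of log2 values was 0.37 to 0.42 between DCT and CLA, 0.41 between both DCT libraries and 0.33 between both DRT libraries, and it was 0.67 to 0.71 between DCT and DRT. The trunk Hox gene Hoxb6 stood at 5.57 and 5.85 FPKM in DCT and at 7.13 and 6.16 in CLA, against group means of 0.407 to 0.925 in the other chin groups and 3.64 to 15.4 in the other dorsal groups. By this gene the DCT libraries went with trunk rather than chin skin, and the CLA libraries stood apart from the other chin libraries. Hoxa7, Hoxc8 and Hoxc9 in DCT and CLA also lay above the other chin group means. For Hoxc8 the margin was small, with CLA at 4.31 and 4.17 FPKM against chin means up to 3.38. Hoxa9, near the floor, did not separate DCT (0.59 and 0.14) from the other chin means (0.025 to 0.16). Ventral skin also expresses trunk Hox genes, with Hoxb7 at means of 11.1 and 4.17 FPKM in its competent and refractory telogen and 9.25 in DCT, so that a dorsal origin was not shown. Whether DCT and CLA share a source, or 1 of these labels is wrong, was not tested. Measured against estimated counting noise, both DCT libraries were also the closest pair of replicates in the table. By the root mean square difference both DRT libraries were closer to each other. The squared difference in the median gene between both DCT libraries was 0.99 times that noise at 20 to 100 fragments. It was 1.35 times at 100 to 1000 and 1.7 times above 1000, where both DRT libraries stood at 1.72, 2.53 and 5.15 times. At low counts the DCT libraries thus differed no more than counting noise, and whether they are repeat runs of 1 sample was not tested. They were counted as 2 libraries, as the labels name them, and the counts of genes called are also given with both libraries of a group averaged to 1. The telogen label of DCT was not clear, because hair shaft, inner root sheath, pigment and proliferation genes were all present at levels given below. DRT also held hair shaft genes, with keratin-associated protein sums of 88930 and 87830 FPKM against 82080 to 83780 in dorsal late anagen. By the same root mean square difference, DCT lay at 0.87 to 0.92 from chin and 0.93 to 1.01 from ventral competent telogen. It lay at 0.61 to 0.66 from dorsal late anagen and 0.53 to 0.56 from chin catagen. No other libraries could take the place of DCT. Every statement on competent telogen therefore rests on the libraries labelled DCT. Depth was estimated at 15700000 and 12100000 fragments in DCT and 20300000 and 26400000 in DRT, within 8300000 to 41800000 over the 43 libraries.

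Dorsal skin differed broadly between these telogen groups. Of the 16248 genes tested, 3469 (21.4%) were higher in DCT and 3119 (19.2%) were lower, at an adjusted p under 0.05 (limma on log2(FPKM + 1), Benjamini-Hochberg adjustment over all genes tested). At least a 2-fold difference on that scale was found for 713 of the higher and 486 of the lower genes, and the median difference over all genes tested was 0.01 on the log2 scale. Positive differences are given throughout for genes higher in DCT. All 6588 genes called were without overlap between the groups, so that a lack of overlap adds nothing to a call. The counts given for each gene list are to be read beside the 21.4% and 19.2% of all genes. With the libraries of each group averaged to 1 sample, 1750 genes were higher and 1439 lower, of which 637 and 422 differed at least 2-fold. The p-values measure only the spread between these libraries, which may be technical, and the spread was shared with the other dorsal stages.

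**Figure D1:**
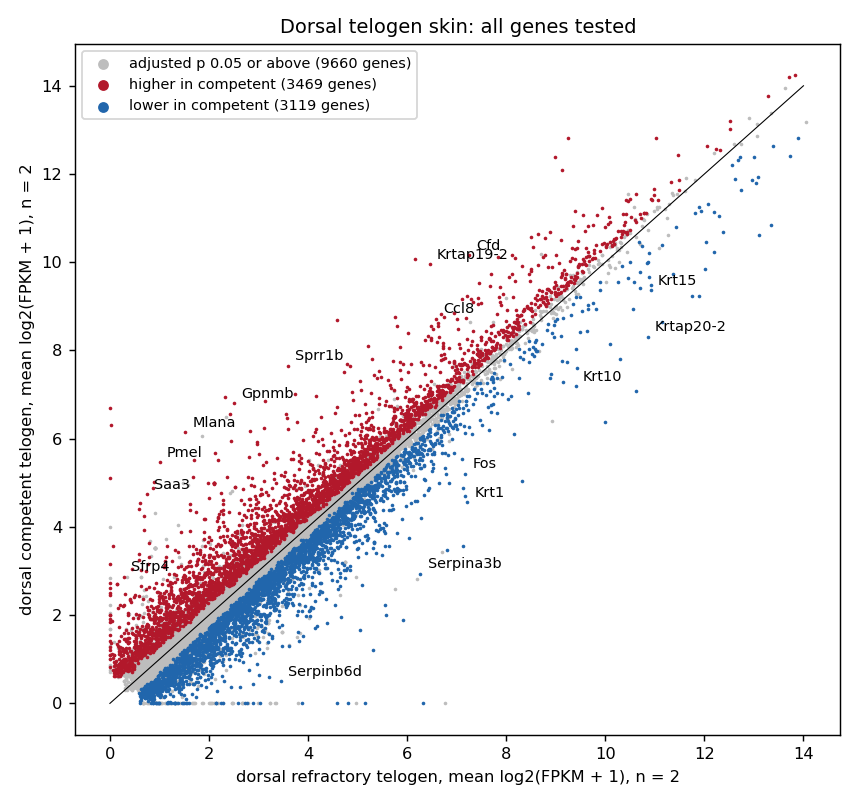
Mean log2(FPKM + 1) of each of the 16248 genes tested in the 2 DRT libraries (horizontal axis) and the 2 DCT libraries (vertical axis), with the 3469 genes higher in DCT and the 3119 lower genes coloured. Most points lie near the diagonal, with a median difference of 0.01, and the genes farthest above it include Mlana, Pmel and Gpnmb.

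Among the 12 genes with the largest differences in favour of DCT were melanocyte genes, major urinary protein (Mup) genes and epidermal stress genes. Mlana, a melanosome protein, stood at 71.0 and 69.3 FPKM in DCT and at 2.53 and 1.32 in DRT (log2 difference 4.64 ± 0.15 SE, adjusted p = 7.42e-09). Pmel, which forms the fibrils on which melanin is laid down, stood at 42.6 and 43.8 against 0.73 and 1.34 (4.46 ± 0.14, adjusted p = 4.42e-09). Gpnmb, a glycoprotein of melanosomes and macrophages, stood at 110 and 112 against 4.74 and 4.67 (4.29 ± 0.07, adjusted p = 6.24e-11). For all 3 genes both DCT libraries lay far above both DRT libraries. Of the 12, 6 were Mup genes, which encode secreted lipocalins that carry small lipophilic molecules, and Mup10 had the highest level, 1075 and 1065 FPKM against 72.3 and 69.4 (3.90 ± 0.06, adjusted p = 6.24e-11). Mup11, Mup7, Mup19, Mup18 and Mup16 differed by 4.62, 4.13, 4.13, 4.09 and 3.82 on the log2 scale, and as these genes are near copies of each other, reads may have been split among them. Sprr1b, a cornified envelope precursor induced in stressed epidermis, stood at 204 and 197 FPKM against 12.4 and 9.99 (4.06 ± 0.14, adjusted p = 1.13e-08). Saa3, an acute phase protein made by fat cells and macrophages, stood at 23.9 and 27.5 against 0.79 and 0.58 (3.99 ± 0.21, adjusted p = 2e-07). AC099934.1, annotated as a miRNA gene, was listed at 0 in both DRT libraries and at 152 and 68.7 FPKM in DCT (adjusted p = 0.025), with a wide spread in DCT and a call lost in several other settings.

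Genes lower in DCT were led by serpins, differentiation genes of the epidermis and 2 mitochondrial tRNAs. Krt1, the type II keratin of suprabasal epidermis, stood at 22.5 and 22.8 FPKM in DCT and at 145 and 149 in DRT (-2.64 ± 0.05, adjusted p = 1.29e-10). Calm5, a calmodulin-like protein of differentiating keratinocytes, stood at 25.3 and 24.9 against 143 and 142 (-2.46 ± 0.06, adjusted p = 1.49e-09). Serpina3b stood at 5.96 and 7.49 against 73.6 and 78.7 (-3.33 ± 0.13, adjusted p = 2.04e-08). These genes were low in both DCT libraries, without overlap. The other serpins in this group were Serpinb6d, Serpina3h and Serpinb12, at -2.94, -2.37 and -2.37, and the Serpina3 genes are close paralogs that may share reads. Foxc2, a forkhead factor of mesenchyme and lymphatic vessels, stood at 1.36 and 1.55 FPKM against 11.3 and 11.2 (-2.32 ± 0.13, adjusted p = 2.63e-07). Gdpd2, a glycerophosphodiester phosphodiesterase, and Slc5a2, a sodium-glucose cotransporter, were both lower by -2.42, and the keratin-associated protein gene Krtap20-2 by -2.55. The mitochondrial tRNA genes mt-Tp and mt-Ta were listed at 0 in both DCT libraries and stood at 35.9 and 20.5 FPKM and at 30.3 and 17.3 FPKM in DRT (adjusted p = 0.0227 and 0.0267), and both calls were lost in several other settings.

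Pigment genes were higher in DCT nearly as a group. Of 15 melanocyte genes tested, 12 were higher, 1 was lower and 2 did not pass, with a median difference of 1.60. Tyrp1, an enzyme of melanin synthesis, stood at 17.8 and 18.2 FPKM in DCT and at 0.58 and 0.64 in DRT (3.56 ± 0.10, adjusted p = 3.76e-09). The gene Dct, which encodes dopachrome tautomerase and is not to be confused with the group DCT, stood at 49.4 and 50.2 against 2.90 and 3.91 (3.54 ± 0.10, adjusted p = 3.76e-09). Tyr, the rate-limiting enzyme of the pathway, stood at 15.2 and 13.9 against 3.24 and 5.17 (1.60 ± 0.14, adjusted p = 7.15e-06). The 1 lower member, Mitf, the master transcription factor of melanocytes, was chosen for mention after its value was seen. It stood at 10.4 and 11.2 FPKM in DCT and at 17.5 and 15.8 in DRT (-0.58 ± 0.09, adjusted p = 0.000551), opposite to the pigment enzymes. The summed level of the list was 255 and 254 FPKM in DCT and 41.5 and 40.6 in DRT, against 723 to 1191 in the libraries of the other 4 dorsal stages, so that DCT lay between refractory telogen and the growing or regressing stages. In whole skin, fewer cells of a type and less RNA per cell cannot be told apart.

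Promoters of Tyr, Tyrp1 and Dct are shown because these 3 enzymes differed together and share a short motif. The sequences are from RefSeq (GRCm38.p6), run from 250 bases before to 50 bases after the gene start in the direction of the gene, and have in capitals TCATGTG, the core of the M-box, on either strand (CACATGA on the other). Tyr lies on the minus strand at chr7:87493463-87493762, Tyrp1 on the plus strand at chr4:80833963-80834262 and Dct on the minus strand at chr14:118052197-118052496.
Tyr: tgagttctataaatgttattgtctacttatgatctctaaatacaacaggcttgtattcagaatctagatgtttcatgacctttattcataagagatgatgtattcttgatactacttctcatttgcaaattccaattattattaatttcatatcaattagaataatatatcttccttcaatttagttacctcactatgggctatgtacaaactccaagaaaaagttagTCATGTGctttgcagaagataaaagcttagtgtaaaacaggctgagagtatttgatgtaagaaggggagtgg
Tyrp1: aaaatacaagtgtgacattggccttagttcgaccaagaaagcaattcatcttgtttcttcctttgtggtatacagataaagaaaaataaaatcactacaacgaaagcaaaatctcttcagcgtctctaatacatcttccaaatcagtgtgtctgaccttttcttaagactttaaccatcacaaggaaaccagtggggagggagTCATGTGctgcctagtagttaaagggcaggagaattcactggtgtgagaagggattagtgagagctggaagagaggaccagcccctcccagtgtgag
Dct: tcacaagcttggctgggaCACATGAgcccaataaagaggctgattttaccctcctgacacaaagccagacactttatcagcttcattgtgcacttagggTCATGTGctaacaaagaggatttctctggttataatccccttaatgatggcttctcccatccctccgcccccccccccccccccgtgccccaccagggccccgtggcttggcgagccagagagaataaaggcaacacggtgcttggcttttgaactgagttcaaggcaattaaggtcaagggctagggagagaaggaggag
Tyr and Tyrp1 held 1 match and Dct held 2. A promoter was given for 8 of the 12 higher pigment genes, and 5 of the 8 held the motif (Dct, Mc1r, Slc24a5, Tyr and Tyrp1), compared with 3.77% of 32851 promoters of the same length. The longer GTCATGTG, which contains it, was found in 3 of the 8 and in 1.06% of all promoters. A gene was counted if any of its promoters held the motif, whereas the shares are of single promoters, so that these are unlike measures. A match is a description of the letters only.

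Cell cycle genes were also higher in DCT. Of 30 proliferation genes, 29 were higher and 1 was lower, with a median difference of 1.27. Mki67, a marker of cycling cells, stood at 6.27 and 6.12 FPKM against 1.88 and 2.14 (1.26 ± 0.07, adjusted p = 2.52e-07). Aurka, a mitotic kinase, stood at 9.34 and 9.68 against 2.14 and 2.26 (1.72 ± 0.10, adjusted p = 3.54e-07). Birc5, a mitotic and anti-apoptotic protein, stood at 54.4 and 47.2 against 12.4 and 11.6 (1.99 ± 0.12, adjusted p = 3.94e-07). The groups did not overlap for these genes or for Ccnb1, a mitotic cyclin, and Ube2c, a ubiquitin ligase subunit of mitotic exit, which differed by 1.95 ± 0.12 and 1.90 ± 0.18. The exception was Ttk, a spindle checkpoint kinase named after its value was seen, at 2.36 and 2.70 FPKM in DCT and 4.0 and 3.89 in DRT (-0.49 ± 0.12, adjusted p = 0.00902), a call lost without DCT replicate 1. The summed level was 498 and 499 FPKM in DCT and 192 and 186 in DRT, against 736 to 1322 in the other dorsal stages.

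Promoters of Mki67, Aurka and Ube2c are shown for the motifs that cell cycle genes often carry. Capitals mark the CHR element TTTGAA and the CCAAT box, each on either strand (TTCAAA and ATTGG on the other), in RefSeq sequence of GRCm38.p6. Mki67 lies on the minus strand at chr7:135716330-135716629, Aurka on the minus strand at chr2:172370521-172370820 and Ube2c on the plus strand at chr2:164769679-164769978.
Mki67: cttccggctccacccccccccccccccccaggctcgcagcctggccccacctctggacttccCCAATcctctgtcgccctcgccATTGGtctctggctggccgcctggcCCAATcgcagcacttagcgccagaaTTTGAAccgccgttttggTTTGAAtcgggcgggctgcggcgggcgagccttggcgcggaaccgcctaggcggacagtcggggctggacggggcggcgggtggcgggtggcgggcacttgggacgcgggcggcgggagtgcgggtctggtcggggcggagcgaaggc
Aurka: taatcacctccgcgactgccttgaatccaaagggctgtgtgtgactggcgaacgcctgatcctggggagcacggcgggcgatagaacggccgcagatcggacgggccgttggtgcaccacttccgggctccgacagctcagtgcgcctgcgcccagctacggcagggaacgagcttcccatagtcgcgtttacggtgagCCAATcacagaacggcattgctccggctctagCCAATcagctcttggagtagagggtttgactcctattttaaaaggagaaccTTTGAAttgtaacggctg
Ube2c: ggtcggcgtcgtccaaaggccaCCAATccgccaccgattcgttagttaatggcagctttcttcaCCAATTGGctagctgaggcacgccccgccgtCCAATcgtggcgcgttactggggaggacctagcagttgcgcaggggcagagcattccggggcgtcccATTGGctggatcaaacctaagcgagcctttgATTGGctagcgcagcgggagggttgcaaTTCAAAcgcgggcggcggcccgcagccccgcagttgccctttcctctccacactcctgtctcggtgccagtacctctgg
Mki67 held 2 matches to TTTGAA and 3 to CCAAT, Aurka 1 and 2, and Ube2c 1 and 6, of which a pair in Ube2c overlap on opposite strands. Of the 29 higher genes, 24 had a promoter, and 12 of these held TTTGAA and 21 held CCAAT, compared with 17.9% and 37.4% of 32851 promoters. The counts are again of genes with a match in any promoter and the shares of single promoters, which are unlike measures.

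Genes of the growing hair were mostly higher in DCT, although refractory telogen skin held them at high levels too. Of 9 type I hair keratins, 5 were higher and 1 lower (median 0.32), and of 5 type II hair keratins tested 3 were higher (median 0.50). Krt35, an early shaft keratin, stood at 902 and 889 FPKM against 371 and 355 (1.30 ± 0.08, adjusted p = 7.42e-07). Krt34, of the shaft cortex, stood at 965 and 947 against 488 and 483 (0.97 ± 0.06, adjusted p = 5.27e-07). Krt31, an abundant cortex keratin, stood at 1067 and 1057 against 940 and 919 and did not pass the test (0.19 ± 0.08, adjusted p = 0.0715). Both DCT libraries lay above both DRT libraries for these 3 keratins. Krt32, Krt40, Krt84, Krt86 and Krt82 were higher by 0.50 to 0.77, and Krt81 differed by 0.15 ± 0.14 (adjusted p = 0.42). Krt33b, the 1 lower member, stood at 1401 and 1392 FPKM in DCT and at 1656 and 1633 in DRT (-0.24 ± 0.08, adjusted p = 0.042) and was named after its value was seen, and its call was lost with any 1 library left out. Of 11 inner root sheath genes, which form the sleeve that moulds the shaft, 10 were higher and 1 lower (median 0.49, and 7 higher under quantile normalization). Krt28 stood at 2183 and 2151 FPKM against 799 and 706 (1.53 ± 0.13, adjusted p = 5.82e-06), and Tgm3, a cross-linking transglutaminase, at 10.6 and 11.1 against 2.38 and 1.99 (1.90 ± 0.08, adjusted p = 4.07e-08). Krt72 differed by 1.12 and Krt25 by 0.32, and Krt74 was lower by -1.26 ± 0.18 (adjusted p = 0.000286).

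Keratin-associated proteins fill the matrix between keratin filaments of the shaft, and 44 of 56 of their genes tested were higher in DCT and 3 lower, with a median of 1.09. Krtap15 stood at 7292 and 7220 FPKM against 617 and 592 (3.58 ± 0.45, adjusted p = 0.000113), and Krtap14 at 5347 and 5277 against 515 and 501 (3.38 ± 0.46, adjusted p = 0.000189). Krtap19-2 and Krtap19-1 differed by 3.50 ± 0.13 and 3.00 ± 0.23, and Krtap1-3 by 1.09 ± 0.13. The lower members were Krtap20-2, Krtap6-3 (938 and 909 FPKM against 4129 and 4125) and Krtap6-1, and members of 1 subfamily may share reads. The summed level was 136900 and 135300 FPKM in DCT and 88930 and 87830 in DRT, while it was only 1252 to 1453 in dorsal early anagen and 58400 to 60100 in mid anagen, so that both telogen groups exceeded the early growth phase.

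**Figure D2:**
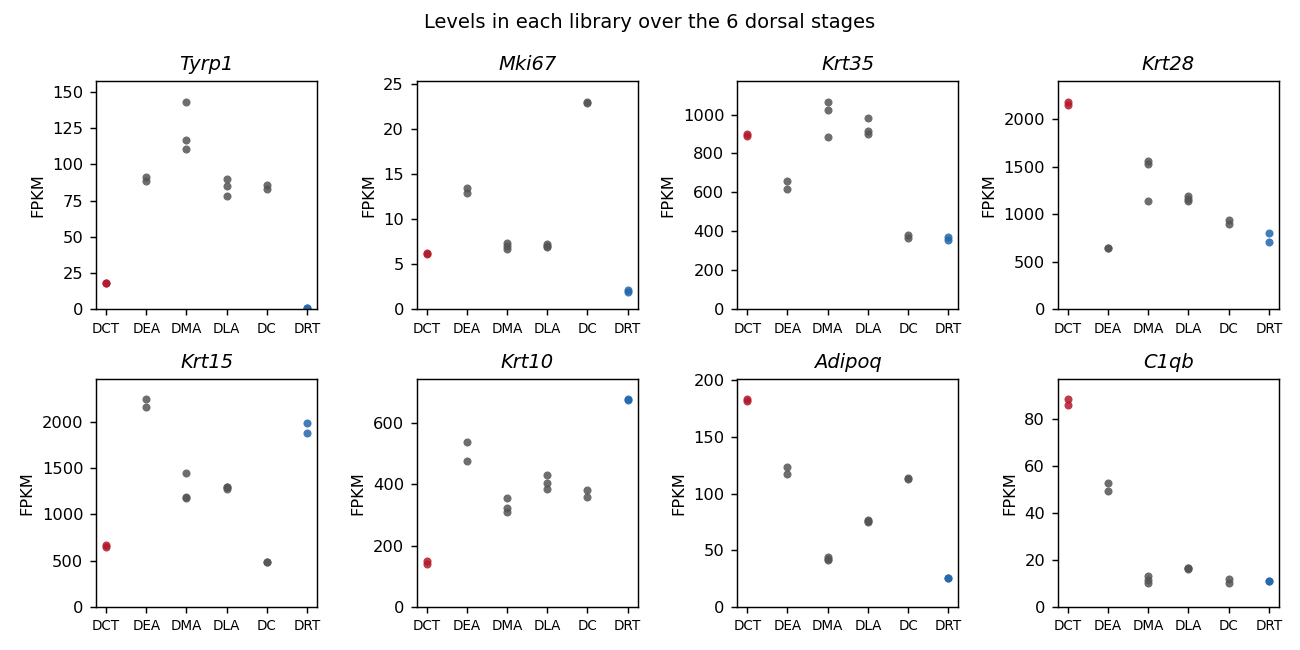
FPKM of Tyrp1, Mki67, Krt35, Krt28, Krt15, Krt10, Adipoq and C1qb in each of the 14 dorsal libraries, ordered by stage, with 1 point per library. Tyrp1 and Mki67 were lowest in DRT, with means of 0.61 and 2.01 FPKM, and Krt15 and Krt10 were low in DCT, with means of 656 and 145 FPKM.

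Across the 6 dorsal stages these genes placed DCT apart from DRT and from early anagen. Mean Tyrp1 was 0.61 FPKM in DRT, 18 in DCT, 89.8 in early anagen (DEA), 124 in mid anagen, 84.3 in late anagen (DLA) and 84.6 in catagen. Mean Mki67 was 2.01 in DRT and 6.2 in DCT, next to 7.01 and 7.04 in mid and late anagen, 13.2 in early anagen and 22.9 in catagen. Krt28 reached its highest dorsal mean in DCT, 2170 FPKM, against 753 in DRT, 641 in DEA and 1160 in DLA. The order of these levels is a description of 2 or 3 libraries a stage.

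Transcription factors of the hair matrix followed the shaft genes, with 8 of 13 higher and 1 lower (median 0.65). Lef1, a nuclear effector of WNT signalling in the matrix, stood at 33.3 and 30.8 FPKM in DCT and 10.9 and 11.4 in DRT (1.45 ± 0.10, adjusted p = 1.51e-06). Msx1, a homeobox factor of the matrix, stood at 26.7 and 24.7 against 11.1 and 11.6 (1.11 ± 0.08, adjusted p = 1.36e-06). Dlx2, Foxq1 and Dlx1 differed by 1.35, 1.32 and 1.30, and Tfap2a was the lower member, a call lost with any 1 library left out. Stem cell markers went the other way. None of 15 hair follicle stem cell markers was higher and 10 were lower, with a median of -0.72. Krt15, a bulge and basal keratin, stood at 664 and 649 FPKM in DCT and at 1882 and 1986 in DRT (-1.56 ± 0.09, adjusted p = 3.1e-07). Col17a1, the hemidesmosomal collagen, stood at 22.6 and 21.8 against 67.1 and 66.5 (-1.55 ± 0.09, adjusted p = 3.67e-07). Gas1, Nfatc1 and Lgr5, a growth arrest protein, a factor of stem cell quiescence and the R-spondin receptor of cycling stem cells, were lower by -1.01, -0.94 and -0.93, whereas Cd34 stood at 37.7 and 35.3 against 40.7 and 39.6 and did not pass (-0.13 ± 0.07, adjusted p = 0.135). Several of these markers, Krt15, Col17a1 and Itga6 among them, are also expressed in basal epidermis, whose genes were lower too.

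Of 11 DP markers tested, 5 were higher and 2 lower (median 0.36), most of them at low levels, and 3 were higher with any 1 library left out. Corin, a DP protease, stood at 1.23 and 1.2 FPKM against 0.30 and 0.23 (0.81 ± 0.12, adjusted p = 0.000343), and the proteoglycan gene Vcan at 2.35 and 1.62 against 1.07 and 0.47 (0.76 ± 0.20, adjusted p = 0.0122). Alpl was higher by 0.47 ± 0.17 (adjusted p = 0.0467), a call that was lost in most other settings, and Hey1, a Notch target, was lower by -0.55. In the Hedgehog pathway, 6 of 11 genes were higher and 2 lower (median 0.36). The ligand Shh stood at 2.21 and 1.97 against 1.19 and 1.08 (0.53 ± 0.11, adjusted p = 0.00369). The targets Gli1 and Hhip were higher by 0.66 and 0.61, and the co-receptor Gas1 was lower, so that the ligand and its feedback targets shared a direction.

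BMP ligands were lower in DCT where they differed. None of 7 ligands tested was higher and 4 were lower, with a median of -0.38. Bmp4, made by the DP and dermal fibroblasts, stood at 24.5 and 25.1 FPKM in DCT and at 40.4 and 41.6 in DRT (-0.70 ± 0.09, adjusted p = 0.000131). Gdf10 stood at 6.13 and 5.88 against 9.82 and 9.87 (-0.63 ± 0.13, adjusted p = 0.00277), and Bmp7 at 19.9 and 19.3 against 26.2 and 26.1 (-0.40 ± 0.06, adjusted p = 0.000461). These 3 ligands were separated by group in every library, as was every gene called. Bmp8a was lower by -0.38 ± 0.10 (adjusted p = 0.00952). Bmp2, also made in dermal fat, stood at 9.75 and 7.86 against 8.45 and 8.74 (0.02 ± 0.09, adjusted p = 0.853), and Bmp6 at 0.79 and 0.66 against 1.03 and 1.2 (-0.29 ± 0.11, adjusted p = 0.0553). Of 9 receptors and transducers, 3 were lower and none higher (median -0.18). These were the receptors Acvr2a, Bmpr1a and Acvr1, at -0.56, -0.43 and -0.42. Response genes did not follow 1 direction. Of 7, Bambi and Id2 were higher by 0.38 and 0.26 (1 higher with any 1 library left out and none when all 43 libraries shared the spread), Id4 was lower by -0.66 (lost without DRT replicate 1), and Id1 stood at 106 and 103 FPKM against 133 and 113 (-0.23 ± 0.16, adjusted p = 0.293).

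Of 11 BMP antagonists tested, 2 were higher and 5 lower (median -0.20), against 21.4% and 19.2% of all genes. Chrdl1, a chordin-like protein, stood at 3.24 and 2.78 FPKM in DCT and at 0.52 and 0.50 in DRT (1.41 ± 0.14, adjusted p = 2.31e-05). Grem1 stood at 1.46 and 1.33 against 4.43 and 3.73 (-1.08 ± 0.14, adjusted p = 0.000139), and Sostdc1, which binds BMPs and also acts on WNT signalling, at 52.5 and 52.3 against 85.6 and 84.6 (-0.69 ± 0.07, adjusted p = 1.5e-05). Both DCT libraries lay above both DRT libraries for Chrdl1 and below them for Grem1 and Sostdc1. Nbl1, Twsg1 and Fst were lower by -0.77, -0.41 and -0.36, and Fstl1 was higher by 0.51 ± 0.09 (adjusted p = 0.000922). Nog, an antagonist that favours anagen, stood at 0.69 and 0.65 against 0.99 and 0.85 (-0.20 ± 0.16, adjusted p = 0.337).

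**Figure D3:**
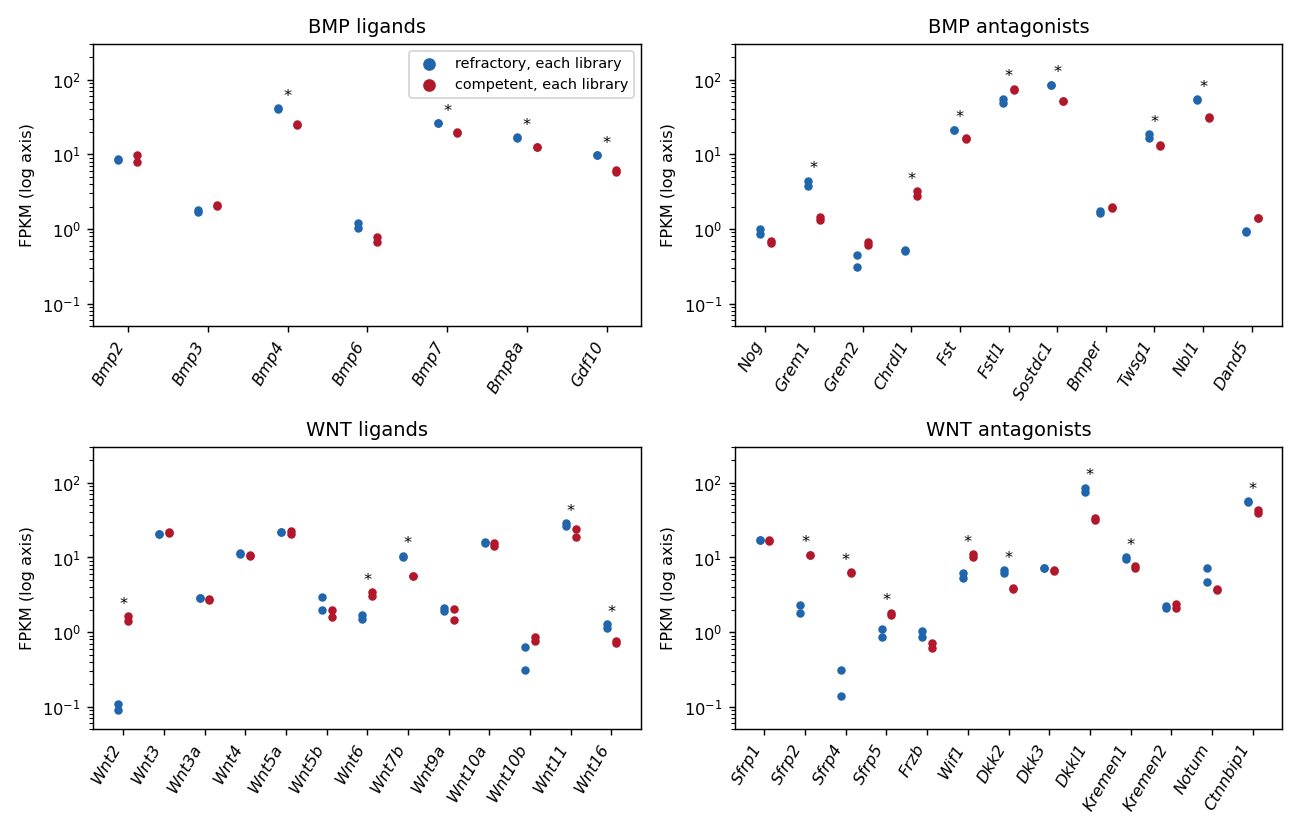
FPKM on a log axis of BMP ligands and antagonists and WNT ligands and antagonists in the 4 dorsal telogen libraries, 1 point per library, with * for an adjusted p under 0.05. Bmp4 and Bmp7 lie lower in DCT in both libraries, whereas Sfrp2, Sfrp4 and Chrdl1 lie higher.

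Of 13 WNT ligands tested, 2 were higher and 3 lower (median -0.07), close to the 21.4% and 19.2% of all genes, and with any 1 of the 4 libraries left out 1 or 2 were lower. Wnt2 stood at 1.64 and 1.43 FPKM in DCT and at 0.09 and 0.11 in DRT (1.2 ± 0.18, adjusted p = 0.000334), and Wnt6 at 3.06 and 3.47 against 1.52 and 1.70 (0.71 ± 0.14, adjusted p = 0.00238). Wnt7b, an epithelial ligand of anagen onset, stood at 5.70 and 5.58 against 10.6 and 10.1 (-0.77 ± 0.07, adjusted p = 1.09e-05). All 3 were separated by group, though Wnt2 was near the floor in DRT. Wnt11 and Wnt16 were lower by -0.37 and -0.35 with adjusted p of 0.0428 and 0.0402, and both calls were lost in most other settings. The abundant ligands Wnt3 (21.4 and 22 FPKM against 20.9 and 20.3), Wnt5a (20.5 and 22.6 against 22.2 and 21.9) and Wnt10a (15.5 and 14.4 against 15.6 and 15.9) did not pass. Among antagonists, 4 of 13 were higher and 4 lower (median -0.08), against the same shares of all genes. Without DRT replicate 1 only 1 was lower, and without DCT replicate 2 there were 2. Sfrp4, a secreted decoy receptor, stood at 6.4 and 6.27 against 0.31 and 0.14 (2.59 ± 0.23, adjusted p = 1.02e-05), and its relative Sfrp2 at 10.8 and 10.9 against 1.79 and 2.29 (1.97 ± 0.17, adjusted p = 6.03e-06). Wif1 and Sfrp5 were higher by 0.79 and 0.49, the latter a call lost in several other settings. Dkkl1 stood at 31.6 and 33.4 against 86.4 and 75.8 (-1.29 ± 0.07, adjusted p = 2.33e-07), and Dkk2, Ctnnbip1 and Kremen1 were lower by -0.63, -0.42 and -0.35. Secreted decoys of the Sfrp and Wif type thus made up all 4 higher antagonists, a grouping made after the values were seen. Of 17 agonists and receptors, 3 were higher and 6 lower (median -0.20, and 3 lower without DCT replicate 2), with Fzd10 at 0.80, Rspo4 at 0.54, Lgr5 at -0.93 and Lgr4 at -0.59. Of 11 target genes, 3 were higher and 2 lower (median 0.01, or -0.05 after rescaling to TPM). Lef1 and Ccnd1 were higher by 1.45 and 0.56, and Axin2, the negative feedback target, stood at 3.20 and 3.46 against 4.57 and 4.58 (-0.37 ± 0.09, adjusted p = 0.00649).

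Other growth factor families differed member by member, and their counts stand beside 21.4% higher and 19.2% lower of all genes. Of 12 EGF family genes none was higher and 9 were lower (median -0.68). The ligand Btc stood at 10.9 and 10.1 FPKM in DCT and at 41.2 and 36.5 in DRT (-1.79 ± 0.10, adjusted p = 3.78e-07), and Epgn, Ereg and the receptor inhibitor Lrig1 were lower by -1.30, -1.15 and -0.98. Of 14 FGF genes, 2 were higher and 4 lower (median -0.15). Fgf5, which ends anagen, stood at 10.4 and 8.85 against 2.07 and 2.77 (1.64 ± 0.12, adjusted p = 2.58e-06), Fgf10, a DP ligand, at 1.05 and 1.01 against 0.41 and 0.36 (0.55 ± 0.12, adjusted p = 0.00366), and Fgf18, a ligand of refractory telogen, at 0.88 and 0.61 against 3.32 and 2.98 (-1.25 ± 0.23, adjusted p = 0.00147). Fgf10 and Fgf18 thus lay on opposite sides in every library. In the IGF axis, 4 of 10 were higher and 2 lower (median 0.19, and 2 higher without either DCT library). Igf1 stood at 15.3 and 14.9 against 3.12 and 4.15 (1.8 ± 0.11, adjusted p = 5.76e-07), and of its binding proteins Igfbp6 was higher by 1.42 and Igfbp3 lower by -1.58. Of 11 TGF-beta and activin genes, 2 were higher and 3 lower (median -0.03, and none higher without DCT replicate 2), with the activin subunits Inhba at 0.49 and Inhbb at -1.0.

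Keratins of the epidermis between follicles were lower in DCT. Of 7, 5 were lower and none higher (median -0.92). Krt10, of suprabasal cells, stood at 149 and 141 FPKM against 677 and 675 (-2.21 ± 0.08, adjusted p = 1.45e-08). Krt5, of basal cells, stood at 891 and 873 against 1720 and 1612 (-0.92 ± 0.07, adjusted p = 4.76e-06). The summed level was 3603 and 3525 in DCT and 7192 and 6909 in DRT, with 3396 to 4280 in dorsal anagen libraries. Of 24 genes of the cornified envelope, 8 were higher and 8 lower (median 0.16). Lce3c, induced in barrier repair, stood at 93.9 and 92.1 against 10.4 and 11.2 (3.00 ± 0.09, adjusted p = 3.76e-09), and Flg2, of steady-state granular layer, at 65.0 and 71.4 against 310 and 258 (-2.04 ± 0.11, adjusted p = 2.27e-07). Flg was lower by -1.21 and Sprr2h higher by 2.00, and Lce and Sprr2 genes may share reads. Of 17 keratinocyte stress genes, 3 were higher and 9 lower (median -0.33). S100a8, an alarmin, stood at 222 and 221 FPKM against 38.1 and 38.2 (2.51 ± 0.06, adjusted p = 4.7e-10), whereas the cytokine gene Il1f9 was lower by -1.55. Of 5 companion layer and stress keratins, Krt75 was higher by 0.46 and Krt79 and Krt6a were lower by -1.09 and -0.63 (median -0.04).

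Fat genes were higher in DCT. Of 25 adipocyte and lipid storage genes, 20 were higher and 3 lower (median 1.09). Adipoq, the adipokine adiponectin, stood at 182 and 183 FPKM against 25.3 and 25.6 (2.80 ± 0.05, adjusted p = 8.07e-11). Cidec, a lipid droplet protein, stood at 74.7 and 75.0 against 7.24 and 8.12 (3.13 ± 0.14, adjusted p = 6.24e-08), and Cfd, adipsin, at 1155 and 1138 against 156 and 148 (2.91 ± 0.10, adjusted p = 7.68e-09). The summed level was 5116 and 5083 FPKM in DCT and 1923 and 1947 in DRT. Sebaceous gland genes went mostly the other way, with 4 of 15 higher and 8 lower (median -0.54). Far2 and Acsbg1, of wax and fatty acid metabolism, were lower by -1.54 and -1.48, and Mc5r stood at 6.81 and 5.03 against 6.36 and 5.61 (-0.02 ± 0.17, adjusted p = 0.928). Of 20 genes of cholesterol synthesis, 4 were higher and 3 lower, near the 21.4% and 19.2% of all genes. Their median was 0.05, or -0.02 after rescaling to TPM and -0.03 under quantile normalization, with Idi1 at 0.47 and Dhcr7 at -0.87.

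Immune genes differed by cell type. Of 23 genes of macrophages and antigen presentation, 16 were higher in DCT and 2 lower (median 1.09). C1qb, a complement component made by macrophages, stood at 86.1 and 88.5 FPKM against 10.9 and 11.1 (2.88 ± 0.10, adjusted p = 1.24e-08). Lyz2 stood at 171 and 172 against 39.4 and 38.9 (2.11 ± 0.07, adjusted p = 5.56e-09), and Adgre1, which encodes F4/80, at 4.50 and 5.55 against 1.61 and 2.02 (1.1 ± 0.13, adjusted p = 6.34e-05). The lower members were Cd207 and Epcam, which mark Langerhans cells and epithelium. Of 13 T and NK cell genes, 8 were lower and 1 higher (median -0.42), and 6 were lower without DCT replicate 2 and 5 without DCT replicate 1, DRT replicate 1 or DRT replicate 2. Cd3g, of the T cell receptor complex, stood at 4.01 and 3.51 against 10.8 and 10.5 (-1.30 ± 0.16, adjusted p = 8.56e-05), and Gzma was the higher member, at 1.51 and 1.30 against 0.07 and 0.46, with no member higher without DCT replicate 1 or DRT replicate 1. Of 8 mast cell genes, 5 were higher and 1 lower (median 1.12), with the proteases Tpsb2, Cma1 and Cpa3 at 2.32, 1.81 and 1.67. All 3 B and plasma cell genes tested were immunoglobulin genes and were higher, Ighm at 14.7 and 16.5 FPKM against 4.99 and 5.25 (1.44 ± 0.11, adjusted p = 2.55e-06). Of neutrophil genes only Cxcr2 was tested, higher by 0.79, and Ly6g was listed at 0 in all 4. Among 23 chemokines, 10 were higher and 5 lower (median 0.42, and 6 or 7 higher with any 1 library left out), and Ccl8 stood at 420 and 419 against 95.8 and 92.8 (2.14 ± 0.05, adjusted p = 3.95e-10). Of 21 interferon response genes, 11 were higher and 2 lower (median 0.34), with Ifit3 at 1.59 and Irf7 at 1.15.

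Structural genes of the dermis were moderately higher. Of 24 genes of fibrillar collagens and elastic fibres, 16 were higher and 1 lower (median 0.57), led by Mfap5, Col6a3, Col6a1 and Col5a3 between 0.94 and 1.31. Col1a1, the main dermal collagen, stood at 337 and 333 FPKM against 323 and 366 and did not pass (-0.04 ± 0.08, adjusted p = 0.731). Of 16 genes of collagen assembly and proteoglycans, 9 were higher and 1 lower (median 0.32), with Ogn at 1.57 and Dcn at 0.59. Of 24 skeletal muscle genes, 15 were higher and 3 lower (median 0.46). Tnnc2, a fast muscle troponin, stood at 1930 and 1907 against 1071 and 1126 (0.80 ± 0.15, adjusted p = 0.00141), and Myh2 was lower by -0.69, with 1 lower member left without DCT replicate 2 or DRT replicate 1. The higher count fell from 15 to 9 under quantile normalization and to 1 when all 43 libraries shared the spread. A thin sheet of skeletal muscle lies under mouse skin. The summed level of the muscle list was 9827 and 9754 in DCT and 7003 and 6839 in DRT. It was 11330 to 11440 in dorsal early anagen, 2883 to 3003 in mid anagen, 1172 to 1199 in late anagen and 5281 to 5429 in catagen. Of 8 smooth muscle genes 3 were higher (median 0.13), Acta2 by 0.58. Of 6 red blood cell genes 4 were higher (median 1.49), and their sum was 3015 and 2995 against 963 and 939, with the globin Hba-a2 at 1.82 ± 0.09 (adjusted p = 1.69e-07), though globin copies may share reads. The sums of muscle, blood and fat genes thus moved with the group, and their part in the differences of the other lists was not tested. Of 16 vessel genes 2 were higher and 2 lower (median -0.15), below the shares of all genes, Pdpn at 1.01 and Ccl21a at -0.89, and of 12 Schwann cell and nerve genes 2 were higher (median 0.09), Pmp22 by 0.40.

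**Figure D4:**
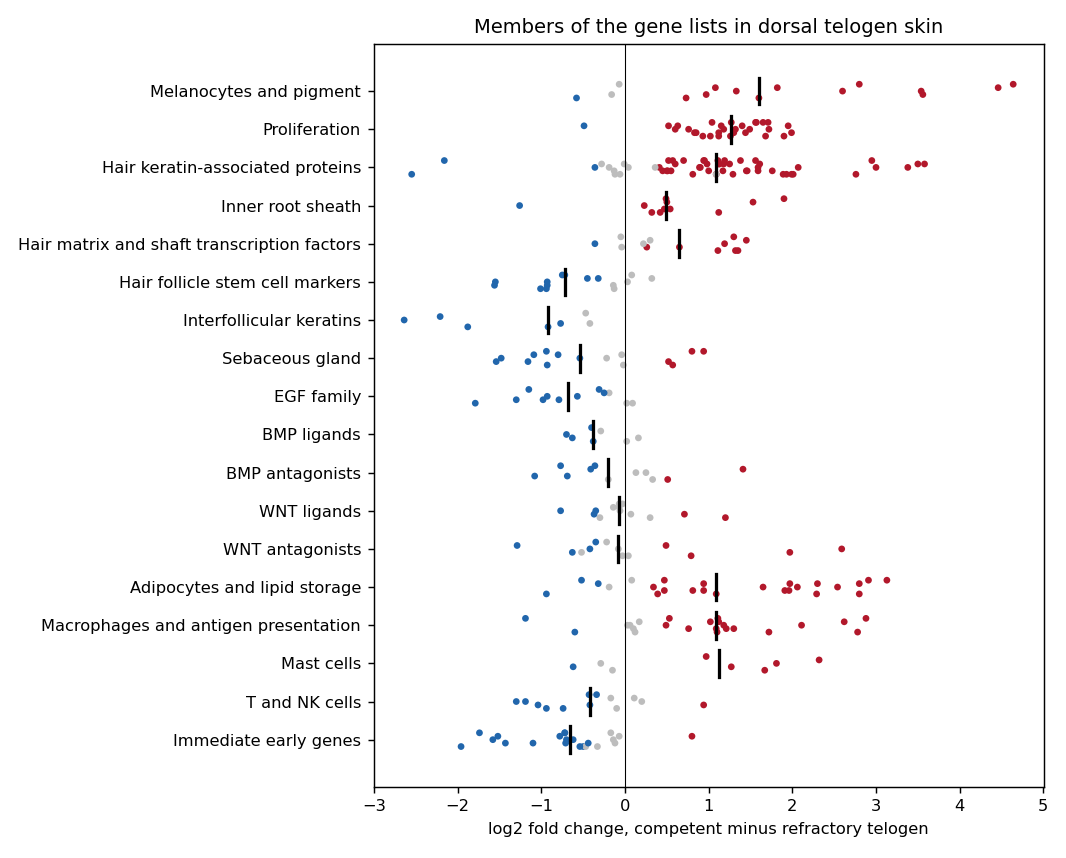
Log2 difference between DCT and DRT (horizontal axis, positive for higher in DCT) of the members of 18 gene lists, 1 point per gene tested, with the median of each list. Pigment and proliferation genes lie at medians of 1.60 and 1.27, and stem cell markers and interfollicular keratins at -0.72 and -0.92.

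Genes that respond fast to outside stimuli were mostly lower in DCT. Of 22 immediate early genes, 15 were lower and 1 higher (median -0.66). Fos stood at 35.5 and 36.5 FPKM in DCT and at 147 and 139 in DRT (-1.96 ± 0.06, adjusted p = 5.91e-09), and Atf3, Dusp1 and Nr4a1 were lower by -1.74, -1.58 and -1.52. Of 16 clock genes, 3 were higher and 5 lower (median -0.16), beside 21.4% higher and 19.2% lower of all genes. The core activators Arntl and Clock were lower by -0.81 and -0.83 and the output gene Dbp was higher, at 36.7 and 33.1 against 10.2 and 10.6 (1.65 ± 0.18, adjusted p = 4.13e-05). Arntl and Dbp are known to peak at opposite times of day. The hour of sampling is not given in the labels, and its part was not tested. Of 13 glucocorticoid response genes, 2 were higher and 6 lower (median -0.20), with Per1 at -1.33 and Tsc22d3 at -1.0. Of 13 hormone receptors and steroid enzymes, 3 were higher and 4 lower (median -0.07), beside the same shares of all genes. They included Hsd11b1, which regenerates glucocorticoid, at 1.46, the growth hormone receptor Ghr at 1.06 and the thyroid hormone receptor Thrb at -0.89.

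Housekeeping genes differed by small amounts that depended on the scaling. Of 35 genes of the mitochondrial respiratory chain, 27 were higher and none lower (median 0.31), with 22 higher after rescaling to TPM, 8 under quantile normalization and 16 without DRT replicate 2. Of 30 ribosomal protein genes, 16 were higher and none lower (median 0.25), with 8 higher under either of these scalings and 6 to 14 with 1 library left out. Uqcrq, of respiratory complex III, stood at 685 and 660 FPKM against 451 and 454 (0.57 ± 0.08, adjusted p = 0.000352). Of 15 trunk Hox genes, Hoxb7 was higher by 0.85, and Hoxa7 and Hoxc4 were lower by -0.47 and -0.60 (median -0.10). Xist, transcribed from the inactive X chromosome, stood at 7.74 and 8.12 FPKM in DCT and at 18.5 and 16.3 in DRT (-1.04 ± 0.08, adjusted p = 2.87e-06). It was 1 of 5 sex-linked transcripts, of which 2 were tested and 1 did not pass. Of the 5, only the Y-linked gene Ddx3y was listed at 0 in all 4 libraries. The sex of the mice was not tested.

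The study had compiled putative activators and inhibitors of the hair cycle from a separate microarray time course. Of 225 activators tested, 117 were higher in DCT and 33 lower, with a median of 0.36. Of 120 inhibitors, 31 were higher and 30 lower, with a median of -0.09. Birc5, Ccnb1 and Ube2c, among the activators with the largest differences, are also in the proliferation list, so that these lists are not separate from those above. Among the inhibitors, Fgf5, Slc6a13, a GABA transporter, and Pla2g2e, a secreted phospholipase, were higher by 1.64, 1.56 and 1.21. The share of activators higher was above the 21.4% of all genes and that of inhibitors was near it, which describes these lists and was not tested.

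The difference between competent and refractory telogen was then compared with the same difference in ventral skin (3 competent and 2 refractory telogen libraries) and chin skin (2 and 3 libraries) of the same strain, over 19132 genes. Both comparisons share the 4 dorsal libraries and rest on the label of the libraries labelled DCT. Those libraries were as close to CLA as replicates are, so that a wrong label and a difference between domains cannot be told apart. The other competent telogen labels were not clear either. Proliferation sums were 1026 to 1194 FPKM in ventral and 914 to 988 in chin competent telogen, against 498 and 499 in DCT. Pigment sums were 283 to 370 and 377 to 401, against 255 and 254 in DCT. Inner root sheath and Krtap sums were lower in both than in DCT. Both ventral refractory telogen libraries (VRT) were the least alike pair of replicates at 100 to 1000 fragments, at 18.8 times counting noise. Pairs of a DCT and a DRT library stood at 16.18 to 21.04 times, so the ventral differences rest on an uneven pair. In dorsal minus ventral skin, 1593 genes (8.33%) had a difference above 0 and 5562 (29.1%) below 0. That split rested on the scaling, since it was 3168 above and 2621 below under median-of-ratios scaling and 996 above and 8213 below in TPM, and the median over all genes was -0.31. In dorsal minus chin skin, 2919 genes (15.3%) lay above 0 and 2924 (15.3%) below, with a median of -0.06. Over all 19132 genes, 7368 were higher and 1732 lower in ventral competent telogen, and 3930 were higher and 3803 lower in chin competent telogen. Of 15 pigment genes, 13 were higher in ventral and 11 in chin competent telogen, and the difference between domains passed for 4 against ventral and 7 against chin skin. Tyrp1 changed by 3.56 in dorsal, 3.36 ± 0.24 in ventral and 3.95 ± 0.24 in chin skin, and the differences between domains did not pass (dorsal minus ventral 0.20 ± 0.36, adjusted p = 0.691, and dorsal minus chin -0.38 ± 0.36, adjusted p = 0.468).

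With the libraries labelled DCT, keratin-associated protein, fat and muscle genes of dorsal skin differed from both other domains in most members. Of 56 Krtap genes, 55 had a dorsal minus ventral difference above 0 and 52 a dorsal minus chin difference above 0, and 53 were lower in competent telogen of ventral skin and 39 in that of chin skin. Krtap19-2 stood at 1.83, 4.23 and 2.05 FPKM in ventral competent and 94.1 and 109 in ventral refractory telogen, opposite to dorsal skin (dorsal minus ventral 8.35 ± 0.27, adjusted p = 1.14e-19). Adipoq was likewise lower in competent telogen of ventral (-1.58 ± 0.21) and chin skin (-2.64 ± 0.21), with dorsal minus chin at 5.44 ± 0.30 (adjusted p = 5.01e-14). For both genes the sign was opposite in dorsal skin. Of 24 skeletal muscle genes, 19 and 24 had a difference above 0 against ventral and chin skin, and 10 of 24 macrophage genes did so against ventral (15 under median-of-ratios scaling) and 21 against chin skin. Mup10 stood at 32.9 and 37.9 FPKM in chin competent and at 703, 1171 and 732 in chin refractory telogen (dorsal minus chin 8.44 ± 0.63, adjusted p = 1.58e-11). Stem cell markers had 11 of 15 dorsal minus ventral differences below 0, and 6 under median-of-ratios scaling. Krt15 changed by 0.31 ± 0.16 in ventral and -0.62 ± 0.16 in chin skin, less than in dorsal skin (dorsal minus ventral -1.87 ± 0.24, adjusted p = 5.57e-07). Krt10 did not pass in ventral (0.11 ± 0.21) or chin skin (0.20 ± 0.21), and its dorsal difference was more negative than both (-2.32 ± 0.32, adjusted p = 1.69e-06, and -2.41 ± 0.32, adjusted p = 7.11e-07). For Bmp4 dorsal minus chin was -0.92 ± 0.18 (adjusted p = 0.000283), and dorsal minus ventral was -0.64 ± 0.18 (adjusted p = 0.00714), which did not pass under median-of-ratios scaling (-0.22, adjusted p = 0.328) or quantile normalization (-0.39, adjusted p = 0.0624).

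**Figure D5:**
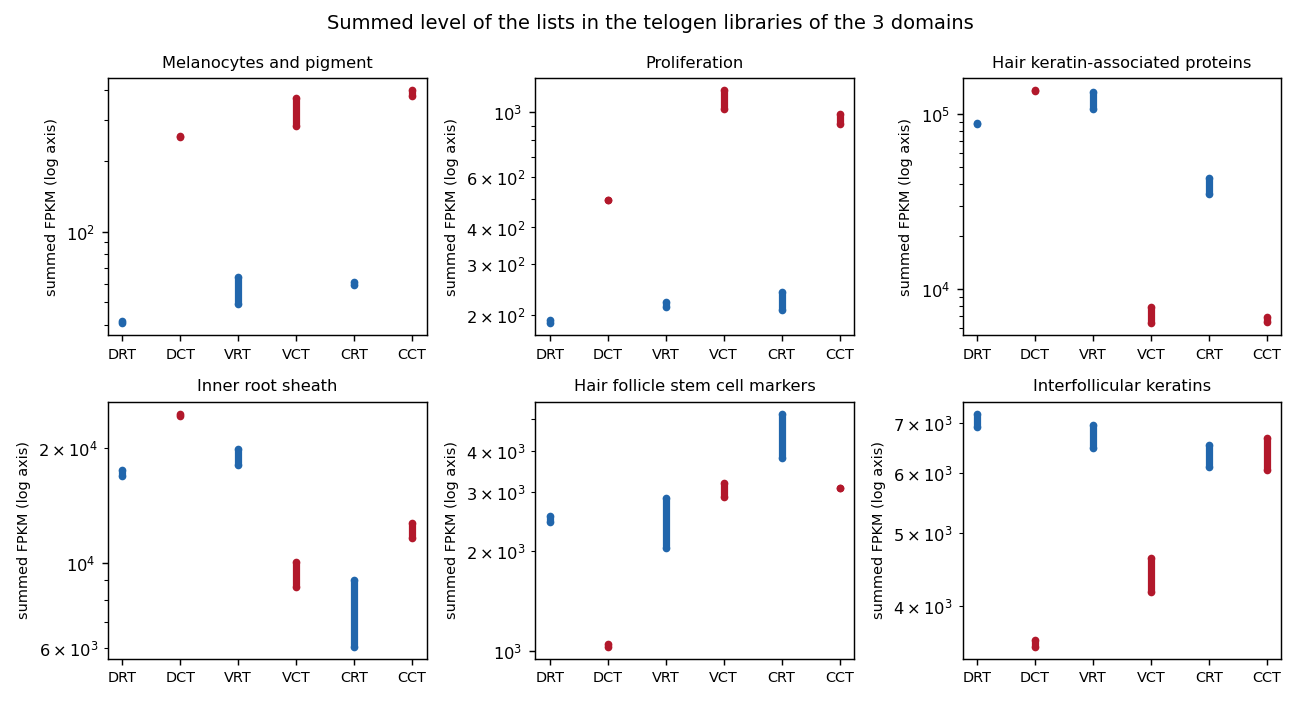
Summed FPKM on a log axis of 6 gene lists in refractory and competent telogen of dorsal, ventral and chin skin, with points at the lowest and highest library of each group. Pigment and proliferation sums were higher in competent telogen in all 3 domains, whereas the Krtap sum was higher in dorsal competent telogen and lower in ventral (6376 to 7909 against 107300 to 133800) and chin competent telogen.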

How the data were processed

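The RNA had been prepared by SMART-seq2 and sequenced as paired ends. The authors quantified the reads with RSEM 1.2.25 on mm10 with the GENCODE vM8 annotation and deposited FPKM values with 2 decimals, and they state that a batch effect was corrected without naming the batches, so the values may already be adjusted. FPKM are not counts, so no count model was fitted here.

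Genes that reached 0.5 FPKM in 2 or more of the 4 dorsal telogen libraries were tested with limma 3.58.1 (R 4.3.3, variance trend) on log2(FPKM + 1), with a pseudocount of 1, in 1 fit of the 14 dorsal libraries as 6 stage groups (8 residual degrees of freedom) and a Benjamini-Hochberg threshold of 0.05. Fold changes on that scale understate those of low genes. Differences between domains were tested as interactions in 1 fit of 43 libraries and 18 groups, on genes that reached 0.5 FPKM in 2 or more of the 14 telogen libraries of the 3 domains. The fit of the 14 dorsal libraries was tested on simulated data, and the fit of 43 libraries was not. Depth was estimated from the FPKM steps of 25166 genes with 1 transcript, and it depends on the fragment length fitted with it.

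The 53 gene lists and the comparison were chosen with earlier results of these data known. Named are the first member of each list, up to 4 called members with the largest differences, the 12 genes with the largest differences in each direction among those of at least 5 FPKM in the higher group (no predicted genes, small RNAs by symbol or pseudogenes), the BMP and WNT ligands and antagonists, and 3 genes a direction for each difference between domains. The genes for differences between domains were taken among called genes whose DCT and DRT libraries did not overlap, with the same limits on level and symbol. Mitf, Ttk, Krt33b, Tfap2a, Krtap6-1, Cd207 and Epcam, exceptions in their lists, were picked with their values in view. Replicate numbers were not used as pairs. Alternatives were a pseudocount of 0.1, other filters, 3 scalings, no variance trend, a replicate block and other sets of libraries. Each of the 4 dorsal telogen libraries was also left out in turn, but no ventral or chin library was. Averaged libraries were a further alternative, chosen after seeing the data. Python 3.11.15, numpy 2.4.6, pandas 2.3.3 and matplotlib 3.10.9 were used, and gene positions were matched for 46488 gene IDs in GENCODE vM21. A few genes under the naming rule are not reported here.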

Additional observations from a re-analysis of the deposited data

Results flagged for a closer look

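The difference between competent and refractory telogen was itself different in dorsal skin for many genes, by the interaction test (limma, 19132 genes). The libraries labelled DCT, on which each of these differences rests, were as close to CLA as replicates are, and their Krtap sums of 136900 and 135300 FPKM stood beside 132600 to 138500 in CLA. A wrong label and a difference between domains cannot be told apart here. Against ventral skin 1593 genes lay above 0 and 5562 below, and against chin skin 2919 above and 2924 below. The ventral counts also rest on both VRT libraries, which differed by 18.8 times counting noise at 100 to 1000 fragments. Against ventral skin the largest called differences were taken among genes whose DCT and DRT libraries did not overlap, under the limits for named genes. On the log2 scale they were those of Krtap19-9a (8.55), Krtap19-2 (8.35), Krtap6-3 (8.28), mt-Tp (-6.62), Serpina3j (-5.90) and Serpina3b (-5.54). Krtap6-3 was lower in competent telogen of all 3 domains, less so in dorsal skin (-2.16 ± 0.44) than in ventral (-10.44 ± 0.31) or chin skin (-8.70 ± 0.31). Serpina3j stood at 4.04 and 4.34 FPKM in DCT and 19.6 and 19.8 in DRT, and at 171, 111 and 148 in ventral competent against 8.57 and 8.50 in ventral refractory telogen. The value of mt-Tp rested on libraries listed at 0 in most groups.

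Against chin skin the largest called differences under the same limits were those of Mup11 (8.89), Mup18 (8.73), Mup10 (8.44), mt-Tp (-8.37), Stfa1 (-4.39) and Serpinb12 (-3.83). Stfa1, a stefin of stressed epidermis, stood at 0 and 1.83 FPKM in DCT and 6.48 and 5.61 in DRT, and at 14.6 and 19.8 in chin competent against 3.23, 3.60 and 1.36 in chin refractory telogen. Serpinb12 stood at 0.54 and 0.57 FPKM in DCT and 7.92 and 6.24 in DRT, and at 19.0 and 18.3 against 5.54, 7.10 and 5.91 in chin skin.

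By list, the members with a called difference were counted above and below 0, beside 8.33% above and 29.1% below of all genes against ventral skin and 15.3% each way against chin skin. Against ventral skin these were 2 and 2 pigment genes, 0 and 25 proliferation genes, 55 and 0 keratin-associated protein genes, 8 and 0 type I hair keratins, 9 and 1 inner root sheath genes, 0 and 11 stem cell markers, and 0 and 3 interfollicular keratins. Against chin skin they were 3 and 4 pigment genes, 0 and 21 proliferation genes, 52 and 0 keratin-associated protein genes, 3 and 1 type I hair keratins, 2 and 3 inner root sheath genes, 2 and 7 stem cell markers, and 0 and 5 interfollicular keratins. No p-value was computed for any list. Under median-of-ratios scaling the ventral counts were 5 and 1 pigment genes, 0 and 18 proliferation genes, 55 and 0 keratin-associated protein genes and 0 and 6 stem cell markers. The Mki67 difference was 1.26 ± 0.07 in dorsal, 2.13 ± 0.08 in ventral and 2.31 ± 0.08 in chin skin.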

How the results depend on the processing

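The number of genes called stayed between 4764 and 4946 with 1 telogen library left out and within 1.5 times the 6588 under each other setting but the one with both groups averaged. Averaging the DCT libraries to 1 sample gave 4627, and averaging those of both groups gave 3189, with 1750 higher and 1439 lower. Both averaging settings were chosen after seeing the data, and their lone samples are assumed to vary like the other dorsal groups. With a pseudocount of 0.1, 938 genes were lower by at least 2-fold, against 486. Rescaling to TPM gave 2850 higher and 3560 lower genes, median-of-ratios scaling 3920 and 2956, and quantile normalization 3230 and 3544. Dorsal minus ventral differences above 0 numbered 996 in TPM, 3168 under median-of-ratios scaling and 2543 under quantile normalization, and those below 0 numbered 8213, 2621 and 2970.

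Over 235 named genes with a call and 16 alternatives, 3510 of 3723 values kept their direction and their call, 212 lost the call and 1 changed sign, Rpl3 at -0.10 under quantile normalization. In all, 181 genes were called under every alternative. Of the called domain differences given with a p or among the largest, 208 values over 12 alternatives kept their call and 8 lost it, 6 of mt-Tp and 2 of Bmp4 (-0.22 and -0.39), all against ventral skin. No ventral or chin library was left out in these alternatives, so the dependence of the domain differences on any of those libraries was not tested. With a replicate block, 6710 genes were called, 3577 higher and 3133 lower, with 1584 and 5486 against ventral and 2896 and 2870 against chin skin. Same-numbered dorsal telogen libraries did not deviate together (correlation -0.01 across 16248 genes, 2 pairs), so the numbers were not read as pairs.

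Among the lists, averaging both groups left 2 of 6 Hedgehog genes, 1 of 5 DP markers and 10 of 15 skeletal muscle genes higher, and 2 of 4 BMP ligands and 1 of 4 WNT antagonists lower. Cholesterol genes higher fell from 4 to 1 without DCT replicate 1, DCT replicate 2 or DRT replicate 2. The count of 29 higher proliferation genes, 12 higher pigment genes and 44 higher Krtap genes became 29, 12 and 39 in the averaged setting. Lower cholesterol genes fell from 3 to 1 without DCT replicate 2 or DRT replicate 1. The 2 higher Schwann cell genes and 2 lower interferon response genes fell to 1 with any 1 library left out, and the 2 higher glucocorticoid response genes fell to 1 except without DRT replicate 1. Lower Hedgehog genes fell from 2 to 1 without DRT replicate 1, lower Hox genes from 2 to 1 without DCT replicate 2 or DRT replicate 2, and lower WNT targets numbered 1 without DCT replicate 1 and 3 without DRT replicate 2. The cause was not tested.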
